A study of Homo sapiens with 6 samples.

Results

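The 41 genes described here carry out mismatch repair, nucleotide excision repair, base excision repair, direct reversal of DNA damage and non-homologous end joining. They were chosen by gene symbol, and all 41 were found among the 60483 genes listed in the count table. In A2780 ovarian carcinoma cells lacking CDK12 these genes moved in both directions. Among the DNA glycosylases, which remove damaged bases, NEIL1 rose by 1.00 and OGG1 by 0.58 on the log2 scale, while SMUG1 fell by 0.67 and NTHL1 fell by 0.53. Both Ku subunits, XRCC5 and XRCC6, and the ligase LIG3 were lower in KO cells, while the end-processing nuclease gene DCLRE1C and the mismatch sensor gene MSH3 were higher.

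Each of these pathways acts on a different kind of DNA damage. Mismatch repair corrects replication errors, which MSH proteins recognise and MLH and PMS proteins pass on for excision. Nucleotide excision repair cuts out bulky lesions, found either across the genome by XPC or at stalled RNA polymerase by the ERCC6 and ERCC8 proteins, and then opened by the helicases of TFIIH and cut by a pair of nucleases. In base excision repair a glycosylase removes the damaged base, APEX1 nicks the strand, and a polymerase and a ligase fill and seal the gap. Non-homologous end joining holds broken ends with the Ku heterodimer, trims and fills them, and seals them with LIG4 and XRCC4. CDK12 is a kinase that phosphorylates RNA polymerase II and is known for its part in the expression of long DNA damage response genes.

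RNA was sequenced from A2780 cells with WT CDK12 and from A2780 CDK12 KO cells, in 3 libraries per group. KO cells came from transfection of A2780 with a CRISPR/Cas9 plasmid aimed at exon 1 of CDK12, were untreated and were grown in the same medium as WT cells. KO is a single clone, so that clone and genotype cannot be told apart. The study describes its chromosome set as about doubled, and its karyotype lists further gains and losses of single chromosomes. Nothing in the labels says that the libraries of a group came from separate cultures, so the p-values measure the spread between libraries, which may be technical.

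Total counts ranged from 11098400 in WT 3 to 30899045 in WT 2, so that 3 counts corresponded to between 0.0971 and 0.270 CPM (reads of a gene scaled to its library's size), a floor that covers counting error only. WT libraries held 2831, 3759 and 1294 reads of CDK12 itself, and KO libraries 2432, 2504 and 1818. This was a log2 fold change of -0.23 ± 0.06 (SE), with an adjusted p of 8.20e-04 in edgeR's quasi-likelihood test. This count covers the whole gene and not the edited bases, so it is no check of the KO label. Of 9 epithelial markers, EPCAM, KRT8 and KRT18 were detected, with a summed level of 68.5 to 74.0 CPM in WT and 115 to 119 CPM in KO libraries. KRT18 made up most of this sum, and the markers did not move together: KRT8 and KRT18 had log2 fold changes of 0.56 and 0.78, and EPCAM one of -0.53 (adjusted p = 0.0119). In the same libraries KRT7, KRT19, CDH1, PAX8, MUC16 and the Wilms tumor gene did not exceed 0.449 CPM. The mesenchymal marker VIM was at 7085 to 7412 CPM in WT and 1480.3 to 1502 CPM in KO libraries. Summed over 9 leukocyte, endothelial and erythroid markers, levels were 0.450 to 0.547 CPM in WT and 0.899 to 1.15 CPM in KO libraries. The part of these marker differences in the repair genes' values was not tested.

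The start regions of 4 members are shown because the results turn on these genes: the riser OGG1, the fallers NTHL1 and LIG3, and the abundant Ku subunit XRCC6. Each sequence is the longest exon-free stretch within the 250 bases upstream of the most upstream start site of the gene in RefSeq, build GRCh38.p14, read 5′ to 3′ along the gene's own strand. Capitals mark GC boxes (GGGCGG, or CCGCCC on the other strand) and CCAAT boxes (CCAAT, or ATTGG on the other strand). The OGG1 stretch of 242 bases lies at chr3:9749702-9749943 on the plus strand, the NTHL1 stretch of 100 bases at chr16:2047867-2047966 on the minus strand, the LIG3 stretch of 250 bases at chr17:34980262-34980511 on the plus strand and the XRCC6 stretch of 118 bases at chr22:41621045-41621162 on the plus strand.
OGG1: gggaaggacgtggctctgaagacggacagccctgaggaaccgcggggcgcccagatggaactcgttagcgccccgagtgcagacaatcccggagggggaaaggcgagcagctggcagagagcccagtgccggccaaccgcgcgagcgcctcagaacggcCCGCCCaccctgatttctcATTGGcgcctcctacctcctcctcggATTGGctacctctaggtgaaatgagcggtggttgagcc
NTHL1: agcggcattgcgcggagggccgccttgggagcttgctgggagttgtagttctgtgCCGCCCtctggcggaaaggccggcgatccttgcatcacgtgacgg
LIG3: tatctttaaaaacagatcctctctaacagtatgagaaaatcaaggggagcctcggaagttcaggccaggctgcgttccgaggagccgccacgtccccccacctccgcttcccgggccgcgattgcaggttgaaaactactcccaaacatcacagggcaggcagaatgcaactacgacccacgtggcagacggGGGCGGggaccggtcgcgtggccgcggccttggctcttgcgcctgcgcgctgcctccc
XRCC6: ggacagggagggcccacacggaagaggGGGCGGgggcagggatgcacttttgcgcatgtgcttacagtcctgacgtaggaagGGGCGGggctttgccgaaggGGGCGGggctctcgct
The OGG1 stretch held 1 GC box and 2 CCAAT boxes, NTHL1 and LIG3 held 1 GC box each, and XRCC6 held 3 GC boxes. Of the 41 members, 37 were matched in the RefSeq table of start regions, and SMUG1, XRCC5, POLB and NEIL2 were not. Within 250 bases upstream a GC box was present in 25 of the 37 members (67.6%), against 42.2% of 27305 start regions of all genes. A CCAAT box was present in 16 members (43.2%), against 33.0% of all genes, and a TATA box (TATAAA) in 1 member (2.70%), against 11.2%. All genes here means those of the RefSeq table, whether or not they were tested in these cells. Nothing particular to the members is therefore read from these shares. Both strands were searched, none of the 3 motifs contains another, and a match describes letters only. No stretch is printed for NEIL1, since all of its 250 upstream bases lie in annotated exons.

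Of the 41 members, 40 passed the filter on low counts and were tested. At an adjusted p under 0.05 in edgeR's quasi-likelihood test, 12 members were higher in KO (30.0% of those tested) and 15 were lower (37.5%), while over all 16198 tested genes 31.9% were higher and 32.0% were lower. Of the tested members 13 did not pass the test. In 29 of 40 members (72.5%) the WT and KO libraries did not overlap, against 66.4% of all tested genes. All of these shares lay near the background. In bulk RNA, a change in the mix of cells cannot be told apart from a change in RNA per cell, and CPM are relative to the library's total.

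The sizes of the differences were small. The median log2 fold change over the 40 tested members was -0.07, beside 0.00 over all tested genes, and the median absolute log2 fold change was 0.20 in the members and 0.32 in all tested genes. With a log2 fold change above 0.5 added to the adjusted p, 2 members were higher (NEIL1 and OGG1), a rule met by 16.6% of all tested genes, and 3 were lower (SMUG1, NTHL1 and LIG3), a rule met by 14.8% of all tested genes. At the study's own pair of thresholds, a log2 fold change beyond 1 together with an adjusted p under 0.05, edgeR called 0 members up-regulated and 0 down-regulated, where 8.30% and 7.73% of all tested genes were called. No member had a log2 fold change beyond 1 in the main edgeR fit, so these counts did not depend on the p threshold. In some alternative edgeR fits NEIL1 lay just past 1, as with upper-quartile normalization (1.03). The count was also 0 in DESeq2, whereas voom/limma, the tool named by the study, called NEIL1 up-regulated and no member down-regulated. With 3 libraries against 3, the exact permutation test of a single gene cannot go below p = 0.1, and this value was reached by each of the 29 members without overlap.

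**Figure D1:**
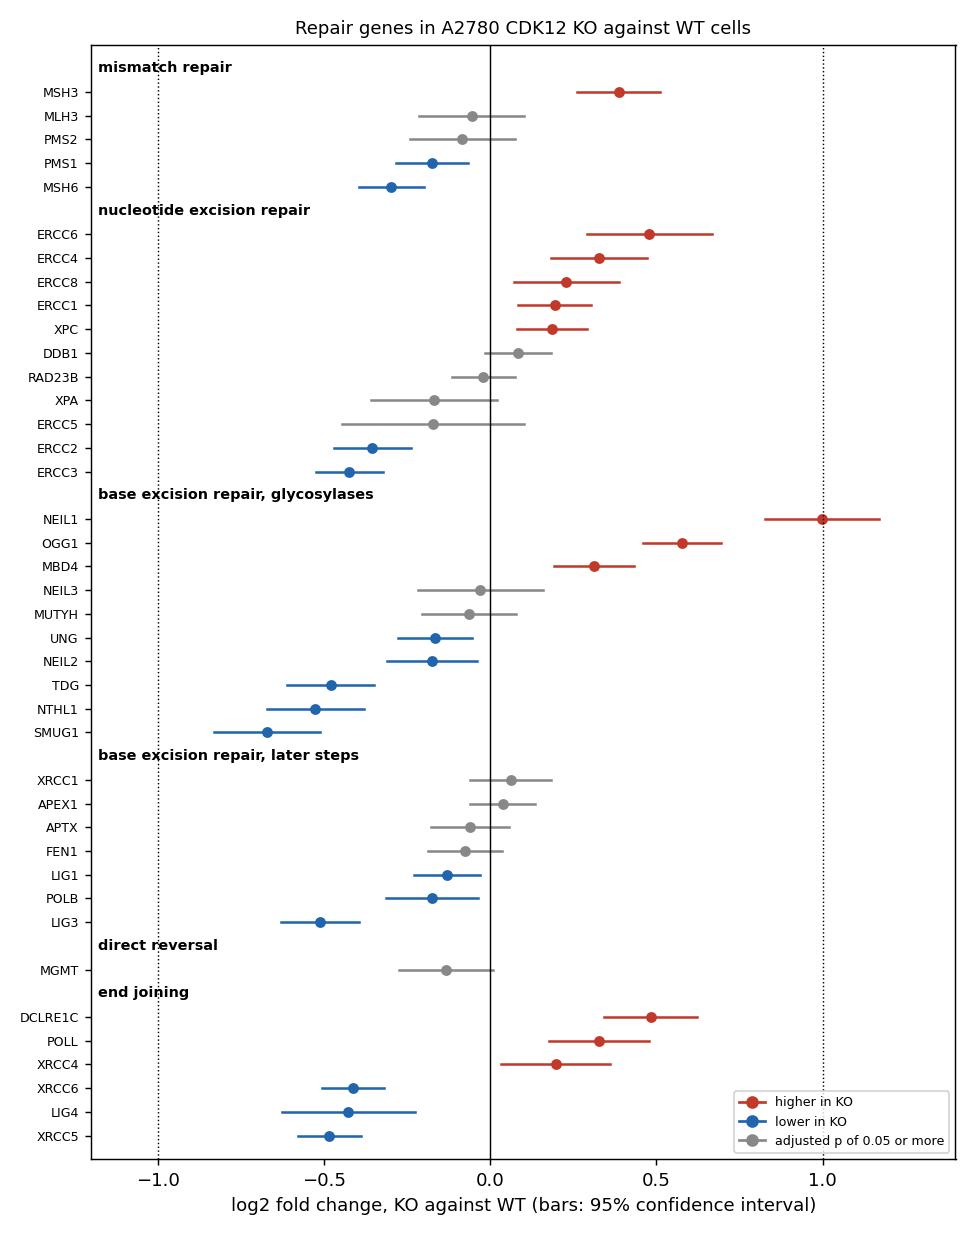
Log2 fold change of KO against WT (x axis, with the 95% confidence interval as a bar) for the 40 tested members, grouped by pathway; red members were higher, blue members lower and grey members had an adjusted p of 0.05 or more. All points lie inside the dotted lines at a log2 fold change of -1 and 1, with NEIL1 next to the upper line, and each pathway except direct reversal and the later steps of base excision repair has both red and blue members.

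The 10 glycosylases held the 4 largest differences of the whole set. At an adjusted p under 0.05, 3 rose (NEIL1, OGG1 and MBD4), 5 fell (SMUG1, NTHL1, TDG, NEIL2 and UNG) and 2 did not pass the test, with a median log2 fold change of -0.11. In 8 of the 10 the WT and KO libraries did not overlap, against 66.4% of all tested genes. The shares called over all tested genes were 31.9% higher and 32.0% lower. With 10 genes, nothing particular to the glycosylases is read from these counts.

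NEIL1, which removes oxidised pyrimidines and open-ring purines, was measured at 15.1, 11.7 and 14.7 CPM in the WT libraries and at 25.6, 29.1 and 27.0 CPM in the KO libraries. Every KO library lay above every WT library, and the mean went from 13.8 ± 1.82 to 27.2 ± 1.74 CPM (SD, n = 3). Its log2 fold change was 1.00 ± 0.08 (SE), unrounded 0.998, with a 95% confidence interval from 0.83 to 1.17 and an adjusted p of 4.13e-12 in edgeR. The threshold of 1 thus lay inside the interval. Without WT 2, the library with the lowest NEIL1 level, the log2 fold change was 0.87, and without WT 1 it was 1.10.

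OGG1 encodes the glycosylase for oxidised guanine paired with cytosine. Its level was 35.0, 33.4 and 34.3 CPM in WT and 51.7, 51.6 and 49.5 CPM in KO, with little spread within a group and no overlap between them. This amounted to a log2 fold change of 0.58 ± 0.06 with an adjusted p of 2.24e-10 in edgeR. MUTYH, which acts on the adenine mispaired with oxidised guanine, stayed near its WT level, at 26.8 to 30.9 CPM in KO against 27.8 to 31.5 CPM in WT (log2 fold change -0.06, 95% confidence interval -0.20 to 0.08). The third glycosylase gene that rose, MBD4, whose product acts on thymine and uracil opposite guanine at CpG sites, rose by 0.31 on the log2 scale (adjusted p = 3.04e-05, edgeR), from 32.6 to 35.1 CPM across WT to 41.7 to 43.0 CPM across KO libraries.

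SMUG1, a uracil glycosylase, fell the most of all members. Its level was 21.6, 21.5 and 21.4 CPM in WT and 14.1, 14.2 and 12.0 CPM in KO, so that the highest KO library stayed well below the lowest WT library. It had a log2 fold change of -0.67 ± 0.08 and an adjusted p of 6.92e-09 in edgeR. TDG, the thymine DNA glycosylase, fell by 0.48 on the log2 scale (adjusted p = 9.64e-08), and UNG, the main uracil glycosylase of replicating cells, fell by 0.17 (adjusted p = 0.00879, or 0.0521 without WT 2). TDG ranged from 35.5 to 36.0 CPM in WT and from 23.7 to 26.9 CPM in KO, while for UNG the lowest WT library, at 66.0 CPM, was close to the highest KO library, at 65.2 CPM. SMUG1, TDG and UNG, which all remove uracil, were thus lower, whereas MBD4, which can also do so, was higher.

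NTHL1, which like NEIL1 removes oxidised pyrimidines, went the opposite way to it. NTHL1 was at 30.9, 28.6 and 29.3 CPM in WT and at 19.1, 22.5 and 19.9 CPM in KO, again without overlap. The log2 fold change was -0.53 ± 0.07 with an adjusted p of 1.15e-07 in edgeR. The other NEIL genes did not follow NEIL1. NEIL2 fell by 0.18 on the log2 scale (adjusted p = 0.0215, but 0.141 without WT 2, 0.0723 without KO 3, 0.0580 in DESeq2, 0.0534 with upper-quartile normalization and 0.334 when thinned to the smallest total, where the fall was 0.09), and NEIL3 was at 10.4, 11.1 and 12.4 CPM in WT and 10.9, 10.5 and 11.3 CPM in KO. For NEIL3 the groups overlapped, with a log2 fold change of -0.03 ± 0.09 and an adjusted p of 0.788.

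In the later steps of base excision and single-strand break repair, 0 of 7 members rose at an adjusted p under 0.05 in edgeR, 3 fell (LIG3, POLB and LIG1) and 4 did not pass the test. At an unadjusted p under 0.05, and in voom/limma and DESeq2, the number that rose was also 0. Over all tested genes 31.9% were higher and 32.0% were lower at the adjusted p, and nothing particular to these 7 genes is read from their counts. LIG3, the ligase that works with XRCC1 and also in mitochondria, was at 52.4, 57.4 and 53.3 CPM in WT and 38.0, 38.1 and 38.6 CPM in KO. The KO libraries were almost level with each other and far below WT, with a log2 fold change of -0.51 ± 0.06 and an adjusted p of 2.73e-09. The scaffold gene XRCC1 did not move with its ligase partner, with a log2 fold change of 0.06 and a 95% confidence interval from -0.06 to 0.18.

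The gap-filling polymerase gene POLB fell by 0.18 on the log2 scale (adjusted p = 0.0245, edgeR), and the replicative ligase gene LIG1 fell by 0.13 (adjusted p = 0.0220). Neither call held throughout: of the 13 alternatives, the POLB call was lost in 6 and the LIG1 call in 7. Among these, the adjusted p of POLB was 0.0670 without WT 1, 0.0532 without KO 2 and 0.0666 without KO 3. That of LIG1 was 0.0653 without WT 3, 0.0898 without KO 1 and 0.0918 without KO 3. APEX1, the main abasic site nuclease, was at 149.6, 145 and 139.8 CPM in WT and 149, 154 and 144 CPM in KO, and these ranges overlapped, with a log2 fold change of 0.04 ± 0.05 and an adjusted p of 0.518. APTX, which removes AMP groups left by failed ligation, was at 43.1, 44.0 and 43.0 CPM in WT and 41.3, 43.7 and 39.6 CPM in KO (log2 fold change -0.06 ± 0.06, adjusted p = 0.371). The flap nuclease gene FEN1 had a log2 fold change of -0.08 with a 95% confidence interval from -0.19 to 0.03. FEN1 passed the test without KO 2 (log2 fold change -0.14, adjusted p = 0.0269).

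**Figure D2:**
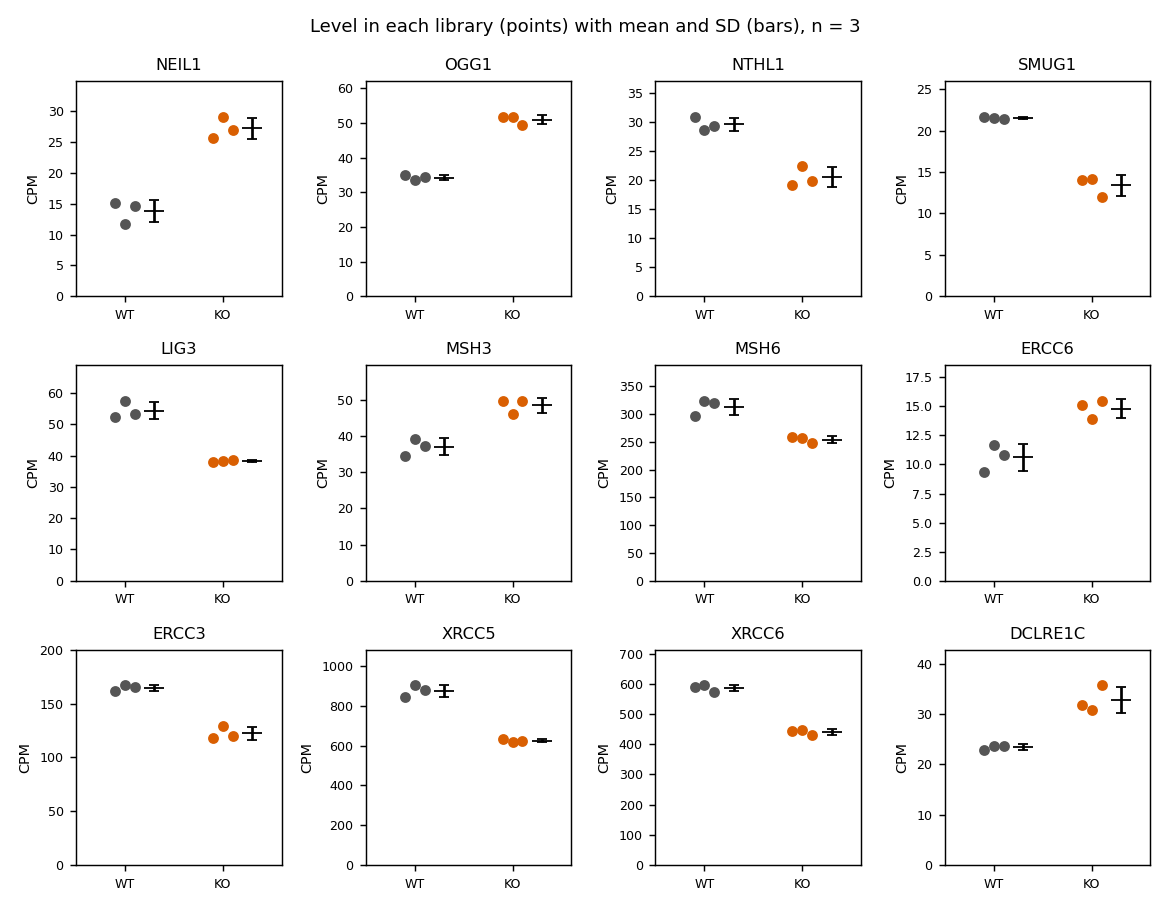
Level in CPM (y axis, from 0) of 12 members in each of the 3 WT (grey) and 3 KO (orange) libraries, with the mean and SD beside the points. The groups do not overlap for any of the 12 genes, with NEIL1 at 11.7 to 15.1 CPM in WT and 25.6 to 29.1 CPM in KO and XRCC5 at 844 to 904 CPM in WT and 621 to 634 CPM in KO. All 12 are called members, so their lack of overlap is no result about the whole set. Groups did not overlap in 72.5% of tested members and 66.4% of all tested genes.

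Among the 5 mismatch repair members, MSH3 rose, MSH6 and PMS1 fell, and MLH3 and PMS2 did not pass the test, with a median log2 fold change of -0.08. Over all tested genes 31.9% were higher and 32.0% were lower. MSH3 and MSH6 compete for the same partner protein, MSH3 for larger loops and MSH6 for base mismatches and small loops. MSH3 was at 34.7, 39.4 and 37.2 CPM in WT and 49.7, 46.2 and 49.7 CPM in KO. This was a log2 fold change of 0.39 ± 0.06 and an adjusted p of 1.79e-06 in edgeR. MSH6 was at 296, 323 and 319.7 CPM in WT and 259, 256 and 247 CPM in KO, for a log2 fold change of -0.30 ± 0.05 and an adjusted p of 2.26e-06. Neither pair of groups overlapped, and the genes moved in opposite directions.

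PMS1, an MLH-type protein with a less defined role in repair, fell by 0.18 on the log2 scale (adjusted p = 0.00468, edgeR), from 60.6 to 61.8 CPM in WT to 52.9 to 55.8 CPM in KO. MLH3, which takes part in loop repair and meiosis, was at 18.0, 18.4 and 16.7 CPM in WT and 16.2, 17.1 and 18.5 CPM in KO, overlapping ranges with a log2 fold change of -0.06 ± 0.08 and an adjusted p of 0.547. PMS2, the endonuclease subunit, had a log2 fold change of -0.08 and a 95% confidence interval from -0.24 to 0.07. Its value is uncertain, because 15 listed PMS2 pseudogenes with near-identical sequence held 2402 counts in all libraries together, 86.6% of the 2774 counts of PMS2 itself. For TDG and XRCC6, pseudogene counts came to 0.378% and 0.326% of the member's own.

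Of the 11 nucleotide excision repair members, 5 rose, 2 fell and 4 did not pass the test, and the median log2 fold change was 0.08. Over all tested genes 31.9% were higher and 32.0% were lower, and nothing particular to the pathway is read from its counts. The risers took in both damage-sensing routes and one of the nucleases: ERCC6 and ERCC8, which act where RNA polymerase stalls, XPC, which finds lesions genome-wide, and ERCC1 and ERCC4, which form the nuclease that cuts 5′ of the lesion. ERCC6 had the largest rise, from 9.34, 11.7 and 10.8 CPM in WT to 15.1, 13.9 and 15.5 CPM in KO, with no overlap, a log2 fold change of 0.48 ± 0.09 and an adjusted p of 3.65e-05 in edgeR. The nuclease gene ERCC4 rose by 0.33 on the log2 scale (adjusted p = 1.69e-04), from 21.8 to 23.6 CPM across WT to 25.9 to 30.1 CPM across KO libraries, and its partner ERCC1 by 0.19 (adjusted p = 0.00225), from 69.8 to 78.9 CPM to 82.9 to 85.1 CPM. XPC rose by 0.19 (adjusted p = 0.00216) and ERCC8 by 0.23 (adjusted p = 0.0106), with KO libraries at 78.9 to 82.2 CPM against 67.5 to 72.3 CPM and at 18.0 to 19.4 CPM against at most 16.7 CPM. No KO library of these 4 genes reached down into the WT range. The call of ERCC8 was lost without WT 1 (adjusted p = 0.0782).

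Both TFIIH helicase genes fell. ERCC3, the translocase that opens DNA at promoters and lesions, was at 161, 167 and 165 CPM in WT and 118, 129 and 120.0 CPM in KO. All KO libraries lay below WT, with a log2 fold change of -0.42 ± 0.05 and an adjusted p of 5.17e-09 in edgeR. ERCC2, the second helicase, fell by 0.36 on the log2 scale (adjusted p = 2.15e-06), at 72.8 to 76.5 CPM in WT and 53.0 to 62.5 CPM in KO.

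The 4 nucleotide excision repair members that did not pass the test were DDB1, RAD23B, XPA and ERCC5. RAD23B, a stabilising partner of XPC, was at 318, 325 and 308 CPM in WT and 324, 301 and 313 CPM in KO, with overlapping ranges, a log2 fold change of -0.02 ± 0.05 and an adjusted p of 0.709. DDB1, part of the ubiquitin ligase that marks ultraviolet lesions, had a log2 fold change of 0.08 (95% confidence interval -0.02 to 0.18). DDB1 passed the test without WT 2 (0.13, adjusted p = 0.0166) and with upper-quartile normalization (0.11, adjusted p = 0.0377). XPA, which checks the lesion, had a log2 fold change of -0.17 (95% confidence interval -0.36 to 0.02). Its groups did not overlap, but only narrowly, at 12.35 to 16.03 CPM in WT and 11.35 to 12.26 CPM in KO. ERCC5, the nuclease 3′ of the lesion, had a log2 fold change of -0.17 (95% confidence interval -0.45 to 0.10) at only 4.01 to 5.80 CPM. The wide interval of ERCC5 left room for a fall of the size measured for ERCC3. ERCC5 shares 3641 exon bases on the same strand with another listed gene, BIVM-ERCC5, which had 0 counts in every library. The ERCC5 count is therefore uncertain.

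Direct reversal was represented by MGMT, which takes alkyl groups off guanine. It was at 22.8, 22.6 and 22.8 CPM in WT and 20.6, 20.3 and 21.5 CPM in KO. The groups did not overlap, but the log2 fold change of -0.13 ± 0.07 did not pass the test (adjusted p = 0.0907, edgeR).

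Among the 7 end joining members, all 6 that could be tested passed the test, with 3 higher and 3 lower. Over all tested genes 31.9% were higher and 32.0% were lower. Nothing particular to so small a group is read from its count. XRCC5, the larger Ku subunit and the most abundant member in reads, was at 844, 904 and 879 CPM in WT and 634, 621 and 624 CPM in KO. XRCC6, the smaller subunit, was at 592, 596 and 574 CPM in WT and 444, 448 and 432 CPM in KO. The subunits fell to a like degree and without overlap, with log2 fold changes of -0.48 ± 0.05 (adjusted p = 1.05e-10) and -0.41 ± 0.05 (adjusted p = 1.92e-09). LIG4, the ligase of the pathway, also fell, by 0.43 on the log2 scale (adjusted p = 3.25e-04), at 10.2 to 10.6 CPM in WT and 7.43 to 8.32 CPM in KO.

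The end joining members that rose were DCLRE1C, POLL and XRCC4. DCLRE1C encodes Artemis, the nuclease that opens hairpins and trims ends, and was at 22.8, 23.7 and 23.8 CPM in WT and 31.9, 30.9 and 35.7 CPM in KO. Its KO libraries all lay above WT, with a log2 fold change of 0.48 ± 0.07 and an adjusted p of 2.46e-07 in edgeR. POLL, a gap-filling polymerase, rose by 0.33 on the log2 scale (adjusted p = 2.78e-04), and XRCC4, the partner of LIG4, rose by 0.20 (adjusted p = 0.0326, but 0.170 without WT 2, 0.0551 without KO 1 and 0.0973 without KO 3). The XRCC4 call was lost in 6 of the 13 alternatives, with DESeq2 among them. POLL ranged from 17.9 to 20.5 CPM in WT and from 22.1 to 24.0 CPM in KO, and XRCC4 from 13.6 to 15.3 CPM and from 16.1 to 17.1 CPM, so that neither overlapped between groups but XRCC4 only narrowly. NHEJ1, the XRCC4-like factor, was counted 2, 5 and 0 times in WT and 5, 4 and 1 times in KO and was not tested. The annotation used here places a second gene, ENSG00000280537, on the same strand with 2034 shared exon bases, and that gene had 3 to 15 counts per library, so that the NHEJ1 count is uncertain.

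Partner genes that work with the members but are not among them were also called in both directions. Of 53 such genes 52 were tested, and 10 rose (19.2%) and 19 fell (36.5%) at an adjusted p under 0.05, beside 31.9% and 32.0% of all tested genes, with a median log2 fold change of -0.07. The subgroups below are small, and nothing particular to them is read from their counts. Of the 14 mismatch repair partners, which are exonuclease, clamp, clamp loader, polymerase and single-strand binding genes, 0 rose and 7 fell, among them the clamp gene PCNA (log2 fold change -0.36), named here after its value was seen. Without adjustment, and in voom/limma and DESeq2, the number that rose was 0 as well. Of the 18 nucleotide excision partners 8 rose and 5 fell, of the 6 base excision partners 2 rose and 3 fell, of the 2 further direct reversal genes (ALKBH2 and ALKBH3) 0 rose and 1 fell, and of the 12 tested end joining partners 0 rose and 3 fell. For the last 2 groups the number that rose was also 0 at an unadjusted p under 0.05 and in voom/limma and DESeq2.

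Values in every library are given for the 4 partners past an adjusted p of 0.05 with a log2 fold change beyond 0.5. Within the kinase module of TFIIH, CDK7 rose from 33.1, 31.5 and 30.7 CPM in WT to 45.3, 44.7 and 46.9 CPM in KO (log2 fold change 0.51 ± 0.06, adjusted p = 5.57e-09, edgeR), while its cyclin CCNH fell from 23.5, 24.7 and 24.9 CPM to 15.3, 13.1 and 16.8 CPM (log2 fold change -0.70 ± 0.08, adjusted p = 4.34e-09). The kinase and the cyclin, which act as a complex, thus moved apart. CUL4A, the scaffold of the DDB1 ubiquitin ligase, fell from 111, 113 and 117 CPM to 78.0, 78.6 and 80.6 CPM (log2 fold change -0.52 ± 0.05, adjusted p = 6.78e-11). APLF, a histone chaperone of end joining and single-strand break repair, fell from 1.68, 1.30 and 1.98 CPM to 1.10, 0.817 and 0.955 CPM (log2 fold change -0.72 ± 0.24, adjusted p = 0.00891), and this call was lost without KO 2 (adjusted p = 0.0598).

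Ratios of read counts between functional partners were formed within each library, which removes the scaling between libraries. The 12 pairs were chosen after the values of the genes had been seen, so their ratios are descriptions. MSH6 counts were 8.53, 8.21 and 8.60 times those of MSH3 in WT and 5.21, 5.55 and 4.98 times in KO. The NEIL1 to NTHL1 ratio was 0.488, 0.410 and 0.502 in WT and 1.34, 1.29 and 1.35 in KO, so that NTHL1 had more reads than NEIL1 in every WT library and fewer in every KO library. The order also turned for CUL4A and CUL4B, the alternative scaffolds, at 1.33 ± 0.0120 in WT and 0.676 ± 0.0367 in KO (SD, n = 3).

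Ratios within stable complexes were of 2 kinds. The XRCC5 to XRCC6 ratio was 1.49 ± 0.0563 in WT and 1.42 ± 0.0308 in KO, that of ERCC1 to ERCC4 was 3.26 ± 0.340 and 2.97 ± 0.270, and that of ERCC2 to ERCC3 was 0.453 ± 0.0184 and 0.474 ± 0.0283, and for each of these 3 pairs the libraries of the groups overlapped. The XRCC4 to LIG4 ratio was 1.39 ± 0.105 in WT and 2.12 ± 0.0656 in KO, the XRCC1 to LIG3 ratio 0.661 ± 0.0379 and 0.983 ± 0.0340, and the CDK7 to CCNH ratio 1.31 ± 0.0926 and 3.05 ± 0.325, without overlap. UNG to SMUG1, LIG1 to LIG3 and OGG1 to MUTYH did not overlap either, with ratios of 3.33, 2.03 and 1.14 in WT and 4.81, 2.63 and 1.79 in KO.

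**Figure D3:**
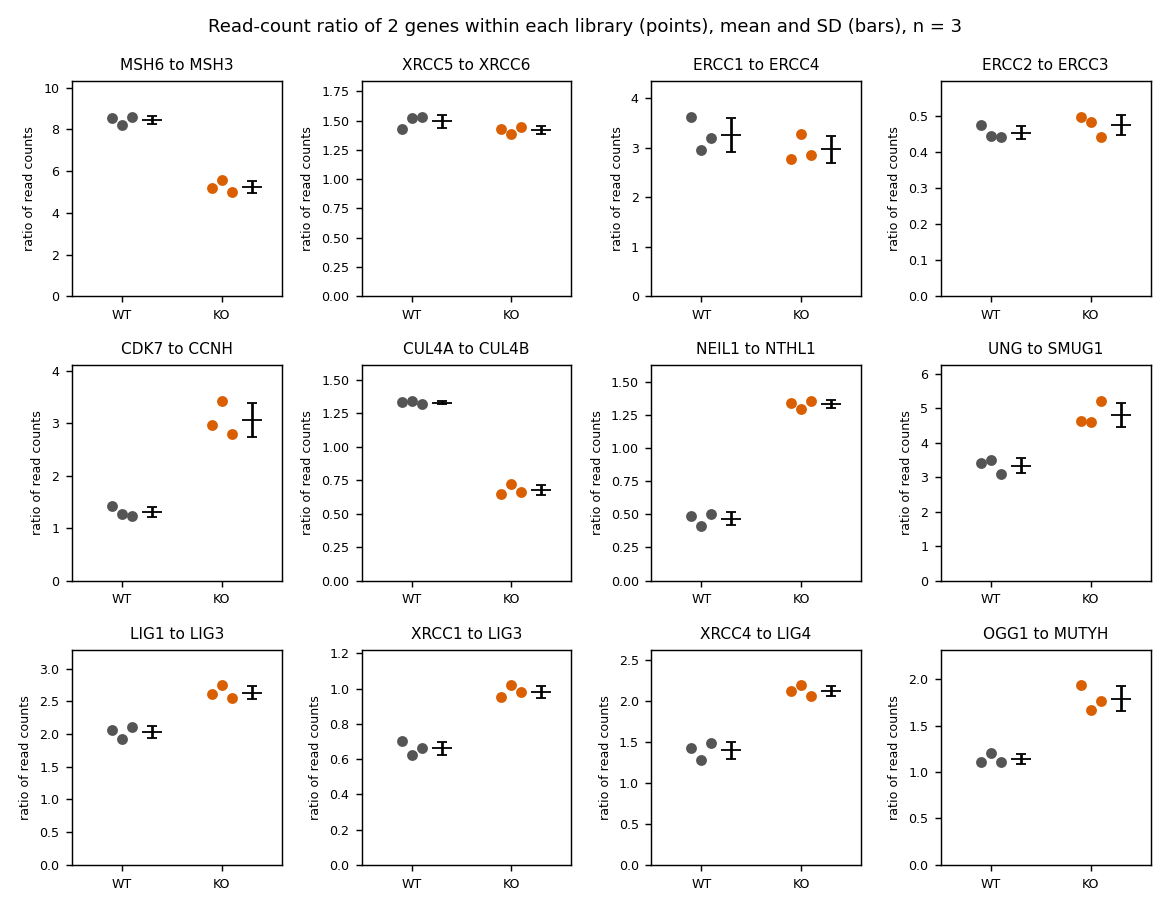
Ratio of the read counts of 2 genes (y axis, from 0) in each of the 3 WT (grey) and 3 KO (orange) libraries for 12 pairs, with the mean and SD beside the points. The groups overlap for XRCC5 to XRCC6, ERCC1 to ERCC4 and ERCC2 to ERCC3 and for no other pair, and NEIL1 to NTHL1 goes from 0.466 in WT to 1.33 in KO on average.

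Levels can be compared between genes only per transcript length, here CPM per kilobase of the reference transcript. On this scale the Ku genes led in both groups, XRCC6 with 277 in WT and 208 in KO and XRCC5 with 259 and 185, followed by APEX1 with 99.7 and 102, DDB1 with 83.7 and 88.8 and RAD23B with 77.0 and 76.0. The order of the 5 highest members was the same in both groups, and ERCC6 and ERCC5 were the lowest, at 1.18 and 1.37 in WT and 1.65 and 1.27 in KO. The level and rank of ERCC5 are uncertain, because it shares exon bases on the same strand with BIVM-ERCC5. Among 40 members NEIL1 moved from rank 34 in WT to rank 28 in KO, OGG1 from 14 to 11 and NTHL1 from 11 to 15. The transcripts used in these cells were not measured here, so these levels depend on the annotated length.

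On some chromosomes all members moved the same way, and on others they did not. The 3 members on chromosome 3 (XPC, OGG1 and MBD4) and the 3 on chromosome 5 (MSH3, ERCC8 and XRCC4) were all higher in KO, and the other tested genes of these chromosomes had median log2 fold changes of 0.25 and 0.27, with 58.5% and 56.1% of them called higher. The 4 members on chromosome 2 (MSH6, PMS1, ERCC3 and XRCC5) and the 3 on chromosome 12 (UNG, SMUG1 and TDG) were all lower, where the other genes had medians of -0.07 on each chromosome, with 38.7% and 36.9% called lower. XPC, ERCC8 and XRCC4, at 0.19, 0.23 and 0.20, thus lay below the median of the other genes of their chromosome, and OGG1, at 0.58, lay above it. On chromosome 16 ERCC4 was higher and NTHL1 lower, and on chromosome 19 ERCC1 was higher, ERCC2 and LIG1 were lower and XRCC1 was not called. On chromosome 10, ERCC6, DCLRE1C and POLL were higher and MGMT was not called, beside a median of 0.06 for the other genes. NEIL1 on chromosome 15 and LIG3 on chromosome 17 moved where the other genes had medians of -0.04 in both cases. In the study's composite karyotype of the KO clone, gains of chromosomes 3 and 5 are listed. Losses are listed too, and include chromosomes 10, 17 and 19. The part of such copy changes in the members' values was not tested.

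Across the 40 members, log2 fold change and the median of the other genes of the chromosome had a Pearson's r of 0.54 and a Spearman's rho of 0.59. The points share libraries, and members of a chromosome share its median, so no test was attached. Log2 fold change and the log10 of gene span had an r of 0.01 and a rho of 0.12 over the same 40 members, and of -0.03 and -0.02 over 12744 tested protein-coding genes. The median span was 47.7 kb in the 12 members that rose, 33.4 kb in the 15 that fell and 37.8 kb in the 13 that were not called. The part of chromosome or span in the members' values was not tested.

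**Figure D4:**
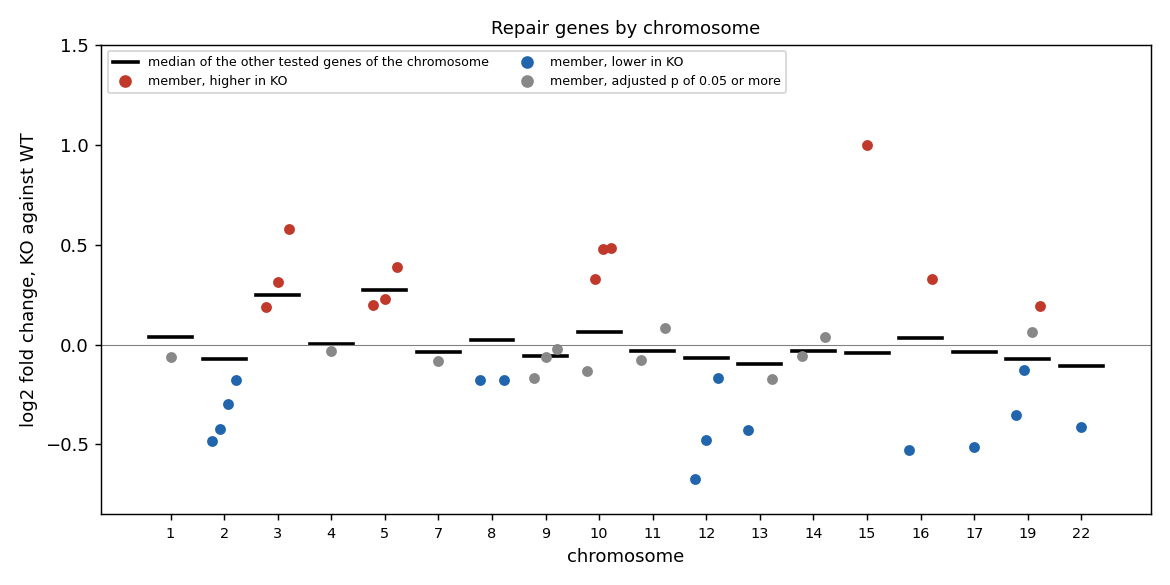
Log2 fold change of KO against WT (y axis) of the 40 tested members (points, colored by call) on each chromosome that holds one (x axis), with a black bar at the median of the other tested genes of that chromosome. The bars of chromosomes 3 and 5 stand highest, at 0.25 and 0.27, and all 6 members there were higher in KO.

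Genes next to the members moved both with and against them. Of the members, 15 have another listed gene that starts head to head within 1000 bases, and 14 such pairs could be tested. In 8 pairs both genes were called, 6 in the same direction and 2 in opposite directions, and 0 of the head-to-head neighbors passed both thresholds. Over all tested genes 31.9% were higher and 32.0% were lower, and 8.30% and 7.73% passed both thresholds. How often head-to-head pairs of other genes moved the same way was not computed, so nothing is read from these counts. NTHL1 and TSC2, whose starts lie 151 bases apart around the stretch printed above, had log2 fold changes of -0.53 and 0.45. XRCC4 and TMEM167A, with starts 153 bases apart, had 0.20 and -0.20. These neighbors are named because of their values.

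Exon overlap bears on how far a count belongs to its gene. Of the members 26 share exon bases with a listed gene, 8 of them on the same strand, and 2 (FEN1 and APTX) with a tested gene on the same strand. ERCC5 and NHEJ1 are among those that share bases on the same strand with a gene that was not tested. The libraries were stranded, but the strand setting of the counting is not given in the sources used here, so reads from an overlapping antisense gene cannot be told apart from the member's own. NEIL1 shares 1832 bases with MAN2C1 on the other strand, which had a log2 fold change of -0.25, and MSH6 shares 4022 bases with FBXO11, at 0.23. DCLRE1C shares 159 bases with SUV39H2, at -0.32. In these 3 pairs the overlapping gene moved against the member. LIG3 shares 3754 bases with RFFL on the other strand, which was counted 383, 386 and 127 times in WT and 388, 426 and 306 times in KO (log2 fold change 0.32, adjusted p = 0.00144), so this gene too moved against LIG3. It also shares 180 bases with CCT6B, which was counted 20, 21 and 2 times in WT and 36, 51 and 29 times in KO (log2 fold change 1.41), the only overlapping or head-to-head neighbor past both thresholds.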

How the data were processed

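RNA-seq libraries of A2780 WT and CDK12 KO cells (3 each, grouped by the genotype label) were single-ended, 75 bases long and stranded. The authors deposited raw counts per gene, and the submitters' processing notes and methods name FastQC, STAR, HTSeq-Count and GRCh38; versions, annotation and strand setting are not given in the sources used here. Members and gene lists were chosen with earlier results of these data known.

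Genes were kept with filterByExpr (minimum count 10, total 15) and compared in R 4.3.3 with edgeR 4.0.16 (TMM, quasi-likelihood, two-sided, Benjamini-Hochberg over 16198 genes); CPM used TMM-scaled totals, and the biological coefficient of variation was 4.35%. Fold changes are KO against WT with SE. Members past an adjusted p of 0.05 and a log2 fold change beyond 0.5, the largest riser and faller of each pathway and the 5 smallest differences are given in every library. Alternatives were limma 3.58.1 (voom), DESeq2 1.42.0, other scalings and filters, thinning and leaving out each library. Scripts were tested on simulated data. Of the listed genes 93.1% matched GENCODE release 44, the source of spans and overlaps. Reads were not analysed here.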

Additional observations from a re-analysis of the deposited data

How the results depend on the processing

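Of the 27 members past an adjusted p of 0.05, 21 kept their call and direction in each of the 13 alternatives that recomputed single genes, and 6 lost the call in at least 1: ERCC8, NEIL2, UNG, POLB, LIG1 and XRCC4. Counts of members called stayed between 10 and 13 higher and between 12 and 15 lower, and leaving out 1 library gave 11 to 12 higher and 12 to 15 lower. The number up-regulated past both thresholds was 0 and became 1, NEIL1, with voom/limma, upper-quartile normalization, at least 10 counts in every library, and thinning to the smallest total. Leaving out 1 library gave 0 to 1, with 1 without WT 1, WT 3, KO 1 or KO 3. The log2 fold change of NEIL1 lies at the threshold, between 0.87 and 1.10 when 1 library was left out.

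The median log2 fold change of the members was -0.0419 with upper-quartile normalization. With that scaling the median of all tested genes was higher too, at 0.0284 against 0.000443 in the main fit. The members' median was -0.0466 with 10 counts in every library and -0.107 to -0.0514 with 1 library left out, and the cause was not tested. Directions turned for 3 members with an adjusted p of 0.05 or more: RAD23B to 0.00605 with upper-quartile normalization and 0.00205 with 10 counts in every library, and, over the fits without 1 library, PMS2 (-0.162 to 0.0108), RAD23B (-0.0492 to 0.00680) and NEIL3 (-0.0901 to 0.0120). No scaling moved the median of all genes by more than 0.03. No paired analysis was possible because the labels number the libraries 1 to 6 and share no number between groups. Few counts limit members such as NHEJ1, which was not tested, and ERCC5. Both share exon bases on the same strand with another listed gene. The parts of depth and of this overlap in their counts were not tested.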
